A study of Homo sapiens with 2 samples.

Results

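The chemokine ligand family was examined on Affymetrix expression arrays of Huh-7 cells, a human hepatoma line, as every gene whose annotated symbol is CXCL or CCL with a number, or CX3CL1. The rule uses names and no measured value, and it gave 35 genes read by 51 probe sets, of 19775 genes with a probe set of their own. They comprise 14 CXC, 20 CC and 1 CX3C gene. A further 3 probe sets that name a chemokine together with another gene were left out.

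One culture was exposed for 6 hours to recombinant human interferon-alpha 2b at 100 U/mL, and the other, untreated culture had only its medium exchanged; both had been incubated for 24 hours before that step. Each culture gave 1 array, so no difference here is backed by replicates, and neither a test nor a p-value is possible. How long after the exchange the untreated culture was harvested is not given in the sources used here. Values are the deposited linear intensities, 1 per probe set and array, and intensities of different probe sets do not rank transcript levels. The floor was the median of all values other than controls on both arrays together, an intensity of 48.5; a value under it was raised to it before a ratio was taken, so that a ratio with such a value is a bound.

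Chemokines are small secreted proteins that direct the migration of leukocytes by binding receptors coupled to G proteins, and they are classed by the spacing of their first cysteines into CXC, CC and CX3C forms. CXC ligands with the residues glutamate, leucine and arginine (ELR) before the first cysteine attract mainly neutrophils through CXCR2. CXCL9, CXCL10 and CXCL11 lack that motif, bind CXCR3 on activated T and NK cells, and are known as interferon-inducible chemokines. In liver, hepatocytes and non-parenchymal cells can both release chemokines during viral hepatitis.

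A smaller share of these genes than of all genes was above the floor. Of the 35 members, 16 (45.7%) exceeded the floor on the interferon-alpha array, the untreated array or both, against 67.1% of all genes. Of the 16, 13 did so on both arrays, CXCL10 and CCL22 only with interferon-alpha, and CCL18 only without. Of all 13269 genes above the floor on at least 1 array, 12742 were so on both and 159 only with interferon-alpha. CCL20, CXCL16, CX3CL1, CCL5, CXCL1, CXCL5 and CXCL17 exceeded 2 times the floor on at least 1 array. CXCL1, CXCL5 and CXCL17 did so by little, at 2.14, 2.08 and 2.04 times the floor. The share of all genes at that level was not counted, so it is not read as a trait of the family. Just inside the floor lay CCL22, with intensities of 50.8 with interferon-alpha and 47.4 untreated, and CCL18, with 46.6 and 49.5 in the same order. Just outside it lay CXCL14, at 44.2 with interferon-alpha and 36.3 untreated.

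With this floor no member reached a 2-fold or a 1.5-fold difference between the cultures, although for CXCL10, CCL22 and CCL18 the value is a bound. At least 2-fold higher with interferon-alpha were 0 of the 16 members and 0.43% of all 13269 counted genes, and at least 2-fold lower were 0 of 16 and 0.0% of all. At 1.5-fold, 0 of 16 were higher and 0 lower, beside 0.754% and 0.0829% of all genes. With a background this low, a count of 0 among 16 genes is near the share over all genes. The median log2 ratio of interferon-alpha over untreated was 0.03 for the 16 members and 0.03 for all counted genes, and 9 of the 16 (56.2%) lay above 0, against 58.5% of all, though 6 of 16 did so after trimmed mean scaling (38.8% of all) and 3 of 16 after centring on the hybridisation controls (1.23% of all). For scale, the ubiquitin-like interferon target ISG15 had 8332 with interferon-alpha and 351 untreated, a 23.7-fold ratio.

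**Figure D1:**
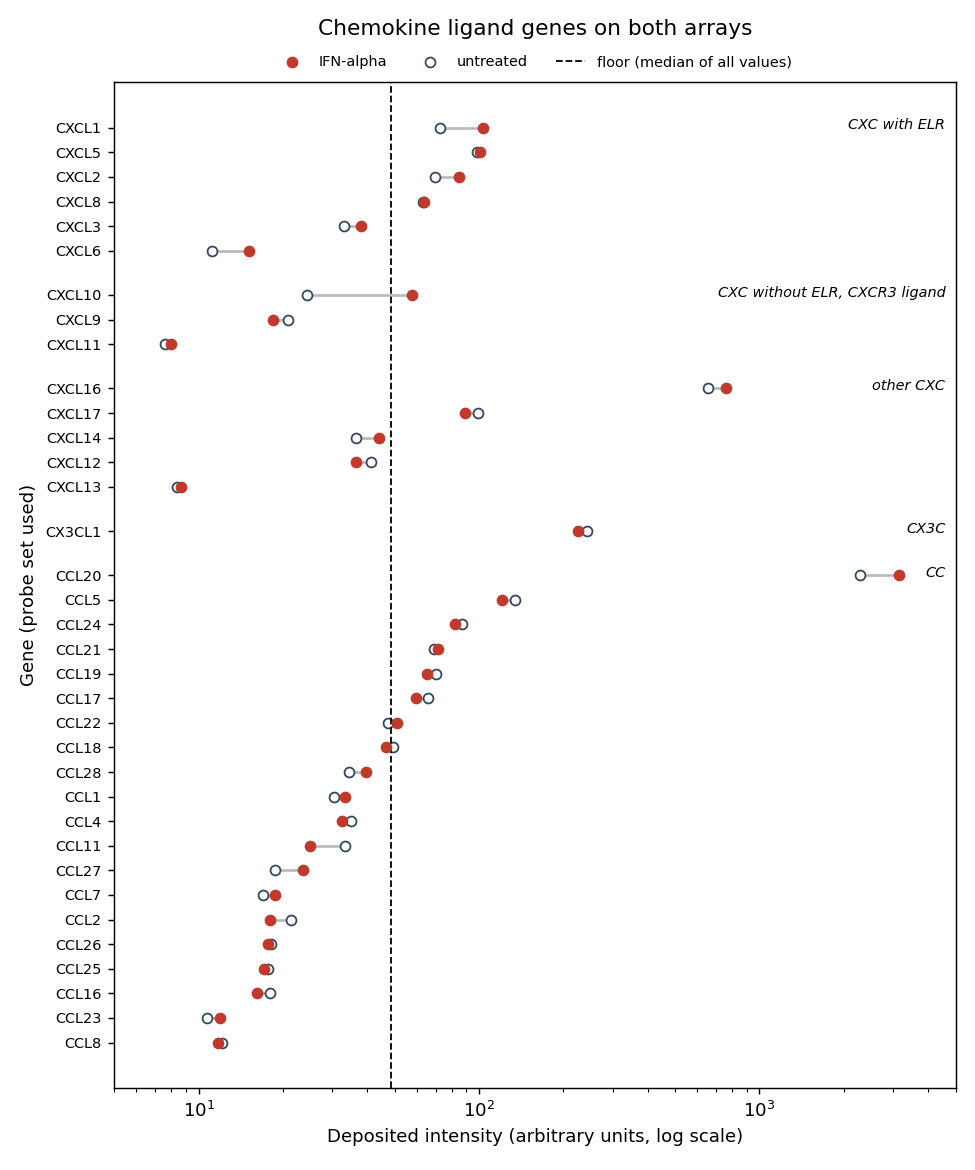
Intensities (arbitrary units, log scale) of the 35 chemokine ligand genes on the interferon-alpha array (filled) and the untreated array (open), grouped by class, with 1 probe set per gene and the floor of 48.5 as a dashed line. Most pairs lie close together, CXCL10 is the pair that crosses the floor by the widest margin, and CCL20 lies far to the right of the other members on both arrays.

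CCL20, CXCL1, CXCL2, CXCL10 and CXCL16 had the highest ratios, and the regulatory sequence before the start of CXCL10, its neighbours CXCL11 and CXCL9, CXCL1 and CCL20 is shown to set these genes side by side. The sequences are from RefSeq (GRCh38.p14), each the 250 bases before an annotated start, on the gene's own strand. CXCL10 is at chr4:76023498-76023747 (minus strand), CXCL11 at chr4:76036071-76036320 (minus), CXCL9 at chr4:76007510-76007759 (minus), CXCL1 at chr4:73869143-73869392 (plus) and CCL20 at chr2:227813592-227813841 (plus). Capitals mark matches on either strand to the core of the interferon-stimulated response element, written TTTCNNTTTC, or to a kappaB motif, written GGGNNNTTCC, the kind of sequence bound by NF-kB; in CXCL1 a match on each strand overlaps the other, which makes the capitals longer.
CXCL10: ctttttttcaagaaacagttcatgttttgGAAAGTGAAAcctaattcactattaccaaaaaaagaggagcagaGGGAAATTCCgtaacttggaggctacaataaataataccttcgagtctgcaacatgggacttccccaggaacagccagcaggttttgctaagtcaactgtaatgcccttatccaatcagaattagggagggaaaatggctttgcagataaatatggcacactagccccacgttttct
CXCL11: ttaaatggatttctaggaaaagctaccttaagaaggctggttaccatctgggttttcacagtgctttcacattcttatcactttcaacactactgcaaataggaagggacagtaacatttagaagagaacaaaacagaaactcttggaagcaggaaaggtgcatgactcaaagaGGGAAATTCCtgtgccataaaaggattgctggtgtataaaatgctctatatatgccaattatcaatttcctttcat
CXCL9: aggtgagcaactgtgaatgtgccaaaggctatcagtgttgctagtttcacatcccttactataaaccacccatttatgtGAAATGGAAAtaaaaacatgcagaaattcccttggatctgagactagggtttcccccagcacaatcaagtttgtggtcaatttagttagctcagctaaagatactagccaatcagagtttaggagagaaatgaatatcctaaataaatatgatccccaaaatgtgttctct
CXCL1: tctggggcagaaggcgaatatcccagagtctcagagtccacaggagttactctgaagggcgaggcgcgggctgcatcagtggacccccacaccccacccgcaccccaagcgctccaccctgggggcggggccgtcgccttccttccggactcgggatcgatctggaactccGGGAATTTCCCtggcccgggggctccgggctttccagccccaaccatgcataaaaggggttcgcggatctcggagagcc
CCL20: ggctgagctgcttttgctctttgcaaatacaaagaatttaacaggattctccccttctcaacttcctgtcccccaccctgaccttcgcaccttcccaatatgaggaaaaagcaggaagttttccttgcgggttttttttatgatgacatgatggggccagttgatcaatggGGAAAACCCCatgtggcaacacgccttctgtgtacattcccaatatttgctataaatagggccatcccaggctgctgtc

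Of these 5 windows, only that of CXCL10 held both motifs. Its interferon element, read as GAAAGTGAAA, began 221 bases before the start and its kappaB match 177 bases before it. CXCL9 held an interferon element match 171 bases before its start, and CXCL11 a kappaB match 76 bases before its start. CXCL1 and CCL20 held kappaB matches that each began 79 bases before the start. A start window was listed for 26 of the 35 members (29 windows, since some genes have several starts). The kappaB letters were in 10 of these 29 windows (34.5%), against 5.67% of all 35116 windows of the same length, and the interferon element in 2 of 29 (6.9%), against 3.02%. The 10 genes with a kappaB match included CXCL1, CCL20, CXCL2 and CXCL10, but also CXCL5 and CCL18, with log2 ratios of 0.03 and -0.03, and 4 members below the floor on both arrays (CXCL3, CXCL6, CXCL11 and CCL1). They were 6 of the 11 members above the floor with a window and 4 of the 15 below it. No match was listed for CXCL16. CXCL1, CXCL2, CXCL3, CXCL5 and CXCL6 carried the same letters, GGGAATTTCC, beginning 78 to 91 bases before the start, so the 34.5% counts like windows several times. A match describes the letters and is not a binding site shown in these cells.

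CXCL10, the CXCR3 ligand best known as an interferon target, was below the floor without interferon-alpha. Its probe set had an intensity of 57.8 with interferon-alpha and 24.4 untreated. Only the interferon-alpha value cleared the floor, and by a small margin. The bound was therefore at least 1.19-fold higher (log2 0.26), and the ratio of the deposited values as they stand was 2.37. The floor decides which of these is read: at the 40th percentile (32.0) the bound was 1.81-fold. The other CXCR3 ligands stayed below the floor on both arrays. CXCL9 had 18.4 with interferon-alpha and 20.8 untreated. CXCL11 had 7.96 with interferon-alpha and 7.57 untreated on the probe set used, and 7.37 and 6.88 in the same order on its other one. CXCL10 and CXCL11 are adjacent on chromosome 4, with no protein-coding gene between them, and CXCL9 and CXCL10 have 1 between them.

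Among the members that are ELR-bearing CXC ligands, 4 of 6 exceeded the floor on both arrays, and their ratios ran from a log2 of 0.02 to 0.51. Over all genes, 67.1% exceeded it on at least 1 array, so 4 of 6 is near that share. All 4 lay above 0 with the deposited scaling, as did 58.5% of all counted genes. CXCL5 and CXCL8 fell below 0 after trimmed mean scaling, and CXCL2, CXCL5 and CXCL8 did after centring on the hybridisation controls. CXCL1, which attracts neutrophils and was first known as a melanoma growth factor, had 103.6 with interferon-alpha and 72.5 untreated, a ratio of 1.43-fold (log2 0.51). When the genes above the floor with and without interferon-alpha were divided by brightness into 10 equal groups, CXCL1 was above 99.5% of its group, in which 95% of the ratios (the central part) lay between -0.38 and 0.32 on the log2 scale. CXCL2, its close relative, had 85.0 with interferon-alpha and 69.4 untreated, or 1.22-fold (log2 0.29), above 96.8% of the same group.

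CXCL5 and CXCL8, also neutrophil attractants, hardly differed on the probe sets used. CXCL5 had 100.6 with interferon-alpha and 98.4 untreated (log2 0.03), and CXCL8, which is interleukin-8, had 63.9 and 63.1 in the same order (log2 0.02). Another probe set gave more in each case. For CXCL5 it had 77.4 with interferon-alpha and 67.0 untreated (log2 0.21). For CXCL8 it was below the floor at 41.5 with interferon-alpha and 29.4 untreated. CXCL3 had 38.0 with interferon-alpha and 33.0 untreated, and CXCL6 had 15.1 and 11.2, all below the floor. CXCL1, CXCL2 and CXCL3 are close in sequence, and the values of CXCL2, CXCL5 and CXCL8 rest on probe sets whose names end in _x_at or _s_at, which can read several transcripts, so their separate values are uncertain. These 6 genes lie together on chromosome 4, with at most 2 protein-coding genes between neighbours.

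CCL20 was far above the floor on both arrays. It is the ligand of CCR6, which draws Th17 cells, B cells and immature dendritic cells, and an early name for it is liver and activation-regulated chemokine. Its intensity was 3152 with interferon-alpha and 2286 untreated, 1.38-fold higher (log2 0.46). Genes as bright as CCL20 were themselves brighter on the interferon-alpha array: in the brightest group the median log2 ratio was 0.14 and the central 95% ran from -0.02 to 0.29. CCL20 was above 99.3% of that group. After quantile and lowess scaling, which take out part of such a trend with brightness, its log2 ratio was 0.30 and 0.32.

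**Figure D2:**
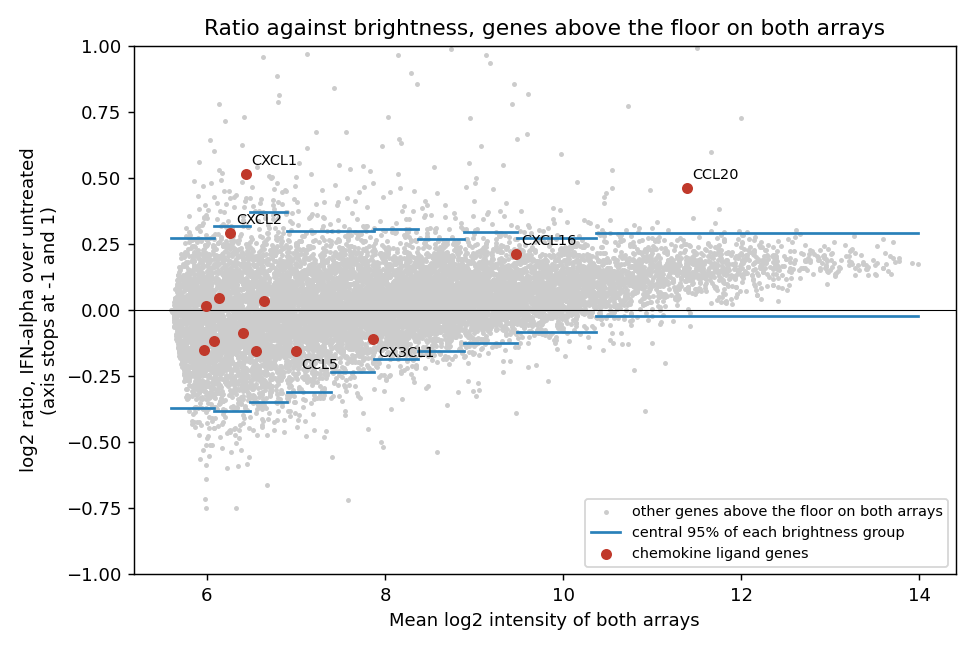
Log2 ratio of interferon-alpha over untreated against mean log2 intensity for the 12742 genes that exceeded the floor on both arrays (grey), with the 13 chemokine ligand genes among them (red) and the central 95% of each of 10 brightness groups (blue lines). The axis stops at -1 and 1 and leaves out 41 genes; CXCL1 and CCL20 lie above the blue lines, and the other 11 lie between them.

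The membrane-bound ligands CXCL16 and CX3CL1 differed in sign, except after centring on the hybridisation controls, where both ratios were below 0. Both are made as transmembrane proteins that hold leukocytes on the cell surface and that the proteases ADAM10 and ADAM17 can release. CXCL16, the ligand of CXCR6 on NKT and T cells of the liver, had 761.8 with interferon-alpha and 657.6 untreated, or 1.16-fold (log2 0.21). That lay within the central 95% of its brightness group, which ran from -0.13 to 0.30. CX3CL1, or fractalkine, which binds CX3CR1 on monocytes and NK cells, had 224.5 with interferon-alpha and 242.4 untreated (log2 -0.11). Its other probe set had 220.2 with interferon-alpha and 240.9 untreated (log2 -0.13), so 2 probe sets placed it slightly lower. Its brightness group ran from -0.23 to 0.30, and CX3CL1 was above 14.8% of it. The 3 probe sets of ADAM10 had log2 ratios from -0.02 to 0.12, and the 3 of ADAM17 from -0.24 to 0.07.

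The mucosal chemokine CXCL17 had 88.9 with interferon-alpha and 98.9 untreated (log2 -0.15), within the range of genes of like brightness. Of the other CXC ligands, CXCL12, which binds CXCR4 and retains stem and immune cells, had 36.4 with interferon-alpha and 41.1 untreated, below the floor. CXCL14 was below it too on each of its 3 probe sets. The B cell attractant CXCL13 had 8.64 with interferon-alpha and 8.36 untreated.

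Apart from CCL20 and CCL5, the CC ligands were near the floor or below it. Of 20, 8 exceeded the floor on at least 1 array, against 67.1% of all genes, and 6 of them on both. Of the 8, 3 ratios lay above 0, beside 58.5% of all counted genes, and 5 below, with a median log2 ratio of -0.06. The 3 became 2 after trimmed mean scaling and 1 after centring on the hybridisation controls. CCL5 (RANTES), which attracts T cells and monocytes, had 121.2 with interferon-alpha and 134.7 untreated on the probe set used, a log2 ratio of -0.15. Its other probe sets were below the floor, at 29.1 with interferon-alpha and 22.4 untreated on one and at 9.65 and 12.3 on the other. Only the probe set used gives a CCL5 ratio that can be read.

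Ligands of CCR4, CCR7 and CCR3 had small ratios. The CCR4 ligand CCL17 had 59.4 with interferon-alpha and 66.0 untreated (log2 -0.15), and the other CCR4 ligand, CCL22, was at least 1.05-fold higher by its bound. The CCR7 ligands, which guide dendritic cells and T cells to lymph nodes, were CCL19 with 65.0 and CCL21 with 71.4 on the interferon-alpha array, against 70.5 and 69.1 on the untreated one. The CCR3 ligand CCL24, which attracts eosinophils, had 82.2 with interferon-alpha and 87.2 untreated (log2 -0.09). All of the ratios in this paragraph that were measured above the floor on both arrays lay within the central 95% of their brightness groups.

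The 19 members below the floor on both arrays had intensities from 7.57 to 44.2, with a median of 18.4 with interferon-alpha and 18.7 untreated, and 12 of them stayed under 25 on both arrays. They were CXCL3, CXCL6, CXCL9, CXCL11, CXCL12, CXCL13, CXCL14, CCL1, CCL2, CCL4, CCL7, CCL8, CCL11, CCL16, CCL23, CCL25, CCL26, CCL27 and CCL28. A value under the floor does not show that the transcript was absent, and no ratio is read from it. Nearest to the floor after CXCL14 were CXCL12, CCL28 (39.6 with interferon-alpha and 34.4 untreated), CXCL3 and CCL4 (32.4 and 34.9). The monocyte attractant CCL2 had 18.0 with interferon-alpha and 21.4 untreated, and CCL16, known as a liver-expressed chemokine, had 16.2 and 18.0.

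By position on the chromosome, of the 11 members on chromosome 17, 3 exceeded the floor on at least 1 array: CXCL16, which is separated from the rest by 329 protein-coding genes, CCL5 and CCL18. The run of CCL2, CCL7, CCL11, CCL8 and CCL1, with at most 1 protein-coding gene between neighbours, was below it throughout. On chromosome 4, 5 of 10 members were above the floor. On chromosome 16 all 3 were, namely the direct neighbours CCL22, CX3CL1 and CCL17, and their ratios were a bound of 0.07 and log2 values of -0.11 and -0.15. Over all genes 67.1% were above the floor, and these small counts per chromosome were not tested against it.

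Of the 11 members with several probe sets, only CXCL5 and CX3CL1 had more than 1 above the floor, and in each the probe sets gave the same sign with the deposited scaling. The remaining 24 members, CXCL1, CXCL10, CXCL16 and CCL20 among them, were read by 1 probe set each. For these 24 the array holds no second reading. In all, 18 of the 51 probe sets exceeded the floor on at least 1 array.

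**Figure D3:**
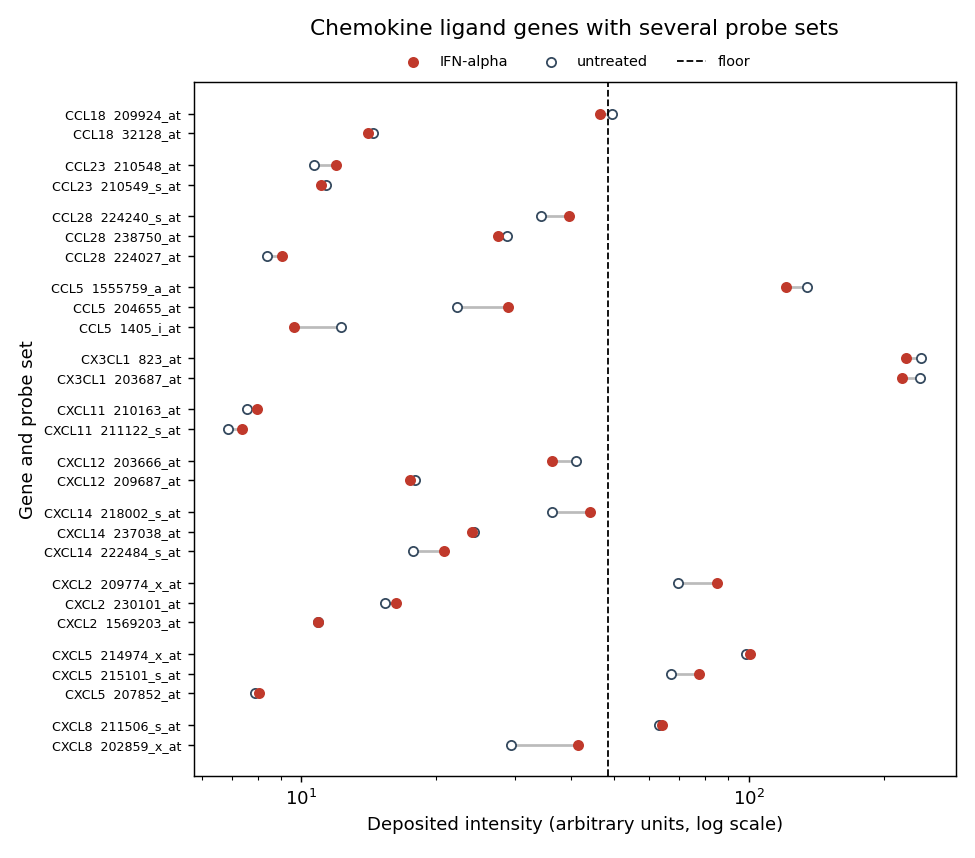
Intensities (arbitrary units, log scale) on the interferon-alpha array (filled) and the untreated array (open) for each probe set of the 11 chemokine ligand genes that have several, with the floor of 48.5 dashed. The probe sets of CX3CL1 lie side by side above the floor, whereas those of CCL5, CXCL2 and CXCL8 lie on either side of it.

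Other genes of the chemokine system showed as little difference. Of 16 typical receptors with a probe set, 6 were above the floor, against 67.1% of all genes, and 0 differed by 1.5-fold. Among these, CXCR5 and CXCR6 had exactly equal values on both arrays, 66.5 and 53.4, so their ratios say little. The other CXCR5 probe set had 48.8 with interferon-alpha and 65.4 untreated (log2 -0.42). CCR1 had 70.7 with interferon-alpha and 55.3 untreated (log2 0.35), and CCR6, the receptor of CCL20, 81.5 and 70.1 (log2 0.22). CXCR3 had 83.7 with interferon-alpha and 90.9 untreated (log2 -0.12), while its other probe set was below the floor at 26.4 and 26.8 in the same order. Of 5 atypical receptors, which take up chemokines without signalling through G proteins, ACKR2 alone was above the floor (log2 0.12), on 1 of its 3 probe sets. Of 5 further ligands, 3 were above it, namely CKLF (log2 0.17), XCL1 (-0.08) and PF4 (-0.17). XCL1 and PF4 were so only on probe sets named _x_at, which can read several transcripts. The other XCL1 probe set was below the floor, at 10.6 with interferon-alpha and 9.73 untreated. Among 5 counted proteases that shed or trim chemokines the median log2 ratio was 0.02, and 0 differed by 1.5-fold. In lists this short a count of 0 is near the share over all genes, 0.754% higher and 0.0829% lower.

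Transcription factors that act on chemokine promoters included the exceptions. Of 13 counted, 2 were at least 1.5-fold higher with interferon-alpha, beside 0.754% of all counted genes: IRF9, which binds DNA in the complex that type I interferon activates, with 2143 with interferon-alpha and 106.7 untreated (20.1-fold), and IRF1, with 149.7 and 81.1 (1.85-fold). The other IRF1 probe set had 89.5 with interferon-alpha and 62.1 untreated (log2 0.53), short of 1.5-fold. The NF-kB subunits NFKB1 and RELA had log2 ratios of 0.08 and 0.07. Of 5 counted inhibitors, 0 differed by 1.5-fold on the probe set used, near the share over all genes. The NF-kB inhibitor TNFAIP3 (A20) had 134.8 with interferon-alpha and 104.2 untreated (log2 0.37), NFKBIA had a log2 ratio of 0.18, and SOCS1, a feedback inhibitor of cytokine signalling, had 0.17, although another SOCS1 probe set above the floor had 114.1 with interferon-alpha and 72.6 untreated (log2 0.65).

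Markers of the labelled cell type were read beside those of other cells. Of 10 hepatocyte markers 9 had a probe set and all 9 were above the floor, against 67.1% of all genes, from CYP3A4 with 114.2 with interferon-alpha and 116.8 untreated to ALB with 14588 and 12212 in the same order. Of 9 leukocyte markers 5 were above the floor and none of these differed by 1.5-fold: LYZ had 2271 with interferon-alpha and 2064 untreated, and CSF1R, CD79A, CD14 and ITGAM had 76.5 to 100.6 with interferon-alpha and 66.3 to 104.9 untreated. The 4 below the floor included PTPRC, the common leukocyte antigen, and CD3E. Markers counted for other liver cells were 2 of 5 for endothelium, 3 of 6 for stellate cells and fibroblasts and 5 of 5 for cholangiocytes and progenitors, and 0 of these differed by 1.5-fold. Their part in the chemokine values was not tested.

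The scaling between the arrays sets the sign of small ratios. On the 18 probe sets of the hybridisation controls the median log2 ratio was 0.43, and centring on them moved the median of all counted genes to -0.38, and the genes past 2-fold then numbered 44 higher and 6 lower, in place of 57 and 0. With that centring CXCL1 had a log2 ratio of 0.09 and CCL20 of 0.04. The same constant is taken from every ratio measured above the floor on both arrays. This therefore does not bear on how far either lies from other such genes. Bounds move otherwise, because the floor was 41.9 with this centring: that of CXCL10 went from a log2 of 0.26 to 0.04.

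**Figure D4:**
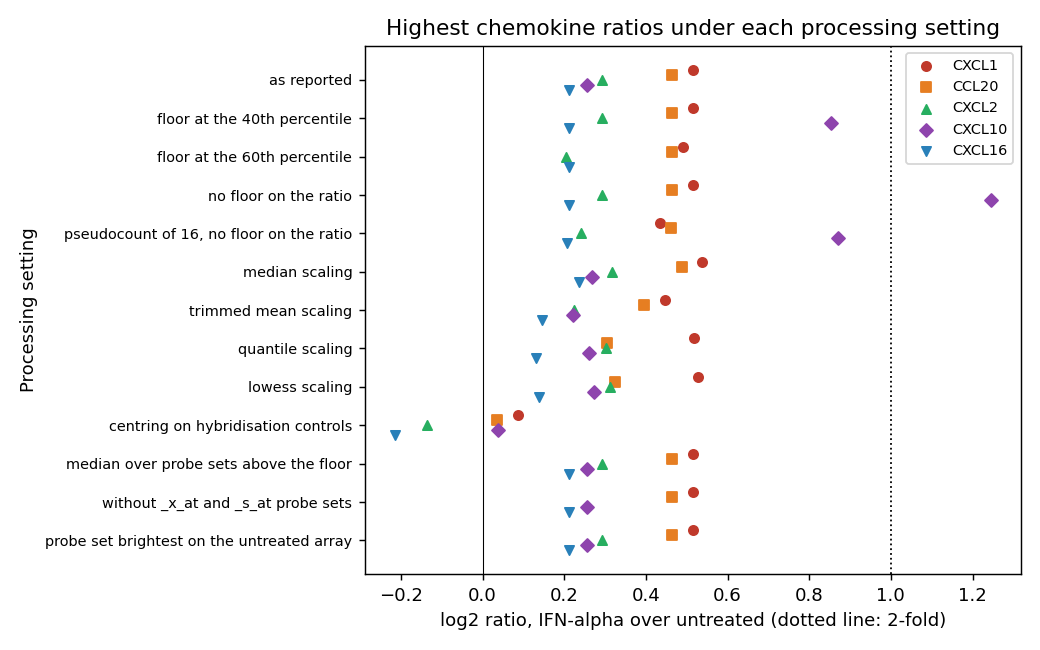
Log2 ratio of interferon-alpha over untreated for CXCL1, CCL20, CXCL2, CXCL10 and CXCL16 under each processing setting (rows), with 2-fold as a dotted line. CXCL10 ranges up to 1.24 without a floor, CXCL1 keeps between 0.43 and 0.54 in all rows except centring on the hybridisation controls, and a gene without a point was below the floor on both arrays in that row.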

How the data were processed

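Biotinylated cRNA was made from 6 ug of total RNA of each Huh-7 culture, per the labels' protocols. The authors deposited linear intensities, 1 per probe set and array. Per the submitters' processing notes GCOS, Affymetrix's scanner software, was used; no version, background correction, probe set summary or scaling is stated in them. No scanner file was used, and detection calls were not analysed here. Precision is limited by the number of arrays, 1 per group.

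Genes were named from the platform annotation, with symbols updated by gene ID through RefSeq; no gene is named from a probe set with several. Where a gene had several probe sets, the one brightest on average (mean log2 intensity) was kept, and the floor was the 50th percentile. A gene was counted if above the floor on at least 1 array. The 10 brightness groups hold equal numbers of those genes that exceeded the floor on both arrays. Every member is named. Genes of the pathway lists are named if changed 1.5-fold, with at most 3 others a list, IRF9 and IRF1 being those changed. Beyond these, genes are named for equal values on both arrays or for repeated decimals. The members and lists were chosen with earlier results of these data known, as were the motifs. Alternatives were floors at the 40th and 60th percentiles, no floor, a pseudocount of 16, 5 scalings and 3 choices of probe set. The procedure was tested on simulated data with large changes, checked in genes above the floor on both arrays. That test does not cover small ratios or bounds. Python 3.11.15, numpy 2.4.6, pandas 2.3.3 and statsmodels 0.14.6 were used.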

Additional observations from a re-analysis of the deposited data

How the results depend on the processing

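No paired analysis was possible because each group has 1 array. The counts of members at least 2-fold or 1.5-fold lower stayed at 0 under all 12 alternatives. Of the members, CXCL10 alone passed a threshold upward. Without a floor it was at least 2-fold higher (log2 1.24), as were 64 of all 13269 counted genes. It was at least 1.5-fold higher with a floor at the 40th percentile (log2 0.85), without a floor and with a pseudocount of 16 (log2 0.87). The share of all genes at 1.5-fold was not counted for these settings. A floor at the 60th percentile left 9 members above it, CXCL10 not among them, beside 57.2% of all genes. One at the 40th left 23, beside 75.7%. Once probe sets named _x_at or _s_at were left out, 32 members still had a probe set. Of these, 13 were above the floor, beside 59.5% of all genes, and CXCL2, CXCL5 and CXCL8 no longer were. The median log2 ratio of the members was -0.39 after centring on the hybridisation controls, beside -0.38 for all genes, and between -0.04 and 0.05 otherwise. Of the ratios of single members, 21 of 182 moved by more than 0.13, the robust SD of the log2 ratios of all genes. Of these, 16 came with centring on the hybridisation controls, and the others were CXCL10 and CCL20. The causes were not tested. The dimness of most members limits what can be read.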

Other observations

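Some intensities end in the same decimals. Controls aside, 2361 of 54613 probe sets (4.32%) had exactly equal values on both arrays, and 1851 on the interferon-alpha array and 1860 on the untreated array (3.39% and 3.41%) ended in 316231 or 816231 after the point. A further 868 differed between the arrays by a whole number once the difference was rounded to 6 decimals. Of the 51 chemokine ligand probe sets, 1 had equal values, a CXCL2 probe set at 10.9 on both arrays, and 0 had these decimals. The CXCL2 probe set is below the floor and enters no ratio. Among the other lists, the probe sets used for CKLF, XCL1, ATF3, REL, NFKB2 and KRT7 had these decimals. The counted receptors CXCR5 and CXCR6 had equal values on both arrays. The XCL1 probe set used for the further ligands had 107.8 with interferon-alpha and 113.8 untreated, a difference of -6.0.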
